A study of Mus musculus with 64 samples.

Results

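The transcriptomes of 12 single eight-cell mouse embryos were described gene by gene, to show which genes were most abundant, which differed most and least from one embryo to the next, and which were high and low in the same embryos. The genes described lay on autosomes and averaged 10 CPM or more over the 12 embryos, CPM being counts per 1000000 reads on genes, with library sizes scaled by TMM factors. This rule took 6788 of the 22075 autosomal genes in the tables, which list 23338 genes in all. A further 195 genes on chromosome X, 3 on chromosome Y and 36 genes that could not be placed on a single chromosome also reached 10 CPM and were left out. Just inside the threshold were Zxdc, Il33 and Zbtb45, with mean levels between 10.004 and 10.01 CPM, and just outside were Slc22a13, Wbscr27 and Lrrc50, between 9.99 and 9.998 CPM. Males and females were not compared. Each gene was instead centred on the mean of the embryos with the same gender label, so that what remained was variation between the libraries of embryos of one sex. Each embryo gave a single library, so differences between embryos and differences made in library preparation cannot be told apart.

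All 12 embryos were of the C57BL/6 J strain and were collected at 2.5 days post-coital after natural matings, and neither superovulation nor culture was used. A male label is carried by 6 (embryos 1 to 6) and a female label by 6 (embryos 7 to 12), which the authors assigned from Xist and Eif2s3y. The zona pellucida of each embryo was removed, and all cells of that embryo went into a single library made with a single-cell protocol that amplifies cDNA by PCR. The embryos came from 4 litters, and which embryo belongs to which litter is not stated in the sources used here, so that embryos of one litter and embryos of different litters cannot be told apart, and littermates are not independent. The whole series holds 64 samples, the others being 4 lines of 2i ES cells, 24 fetal livers and 24 adult livers.

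At the eight-cell stage the mouse embryo has replaced most of the RNA that the oocyte stored with RNA of its own genome. It is about to compact, when E-cadherin and its catenins draw the cells together, and to polarise, which precedes the separation of trophectoderm from inner cell mass. Ribosomes, chaperones and the machinery of translation are made at high rates, and the regulators of both later lineages are present together. In a library made from a whole embryo, fewer cells of a kind and less RNA per cell cannot be told apart.

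Each embryo gave between 4659656 and 7725432 reads on genes, with reads on 9407 (embryo 3) to 11126 genes (embryo 11). At these depths 3 reads correspond to 0.388 to 0.644 CPM before TMM scaling, and counting error is small beside the differences described below. Of the reads assigned to a gene, to several genes or to no gene, between 8.63% (embryo 3) and 14.4% (embryo 1) fell outside genes, and embryo 10 was next to embryo 3 with 8.71%. Correlations between embryos over all 6788 genes (log2 CPM) were between 0.72 and 0.91, with a median of 0.82. The libraries farthest from the other embryos of their label were embryos 3, 1, 12 and 10, with root mean square differences of 1.02, 0.94, 0.89 and 0.88 on the log2 scale, against 0.57 to 0.79 in the remaining 8. The main summaries are therefore also given without embryos 1, 3 or 10. Leaving out embryo 12 gave a median SD of 0.58 and a ribosomal protein correlation of 0.73, against 0.60 and 0.72 with all embryos (both measures are described below).

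The libraries had the transcripts that an embryo before implantation should hold. Dppa3 (an oocyte and embryo protein that protects methylation in the zygote) was between 1732 and 3854 CPM, Dppa4 between 339 and 594 CPM and Tfap2c between 173 and 379 CPM in the 12 embryos. Pou5f1, which encodes the pluripotency factor Oct4, ranged from 95.4 to 687 CPM. Nanog averaged 7.84 CPM and Ooep, an oocyte protein, 3.64 CPM, so neither reached 10 CPM. Of 20 markers of cumulus and granulosa cells only Amhr2 was a member (32.7 to 77.8 CPM), and the summed level of the 20 was 33.8 to 81.3 CPM. Of the 19 oviduct markers in the tables only Cd24a was a member, a gene with levels between 1.04 and 37.4 CPM, and the sum was 1.91 to 43.8 CPM. The 18 blood cell markers in the tables had a summed level of 0 to 5.27 CPM and none was a member. The 68 replication-dependent histone genes, whose mRNAs lack a poly(A) tail, had no member either, with sums of 2.5 to 18.1 CPM.

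Of the 15 genes with the most reads, 4 encoded ribosomal proteins. Npm1, a nucleolar histone chaperone of ribosome assembly, had the highest mean at 10089 CPM, from 6965 CPM in embryo 1 to 14199 CPM in embryo 9. It was followed by the constitutive chaperone Hspa8 (mean 6811 CPM), the elongation factor Eef1a1 (6517 CPM), the F-box gene Fbxo15 (5538 CPM), the ribosomal stalk protein Rplp0 (5457 CPM) and Rpl4 of the large subunit (4258 CPM). The chaperones Hsp90ab1 (4062 CPM) and Hsp90aa1 (3958 CPM), the initiation factor subunit Eif2s2 (3976 CPM) and prothymosin alpha, Ptma (3882 CPM), came next. The last of the 15 were Isyna1, which makes inositol phosphate (3721 CPM), Gpd1l, a relative of glycerol-3-phosphate dehydrogenase (3712 CPM), Rps2 (3567 CPM), Gnb2l1, the ribosome-bound scaffold also called Rack1 (3543 CPM), and Rpl5 (3489 CPM). The 15 genes took between 6.00% and 8.08% of the reads of an embryo.

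CPM counts reads without regard to transcript length. Per kilobase of the longest protein-coding transcript, 8 of these 15 genes were still among the 15 highest, with Npm1 first at 6178 CPM per kb, and 9 of the 15 were ribosomal protein genes in place of 4. Dppa3, with 3089 CPM per kb and a transcript of 833 bases, entered the list. Within the 15 genes of highest CPM, the largest ratio of the highest to the lowest embryo was 3.64, for Hsp90aa1, which was at 7211 CPM in embryo 3 and 1980.3 CPM in embryo 1. The smallest ratio was 1.40, for Rpl4.

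Most genes differed between the libraries of the embryos by far more than counting error, which does not cover differences made in library preparation. The SD of log2 CPM within gender label (10 degrees of freedom, pseudocount of 0.5 CPM) had a median of 0.60 over the 6788 genes, with quartiles of 0.41 and 0.91 and extremes of 0.11 and 2.88. A distance of a single SD of 0.60 from the label mean corresponds to 1.51-fold. Counting of reads alone would give a median SD of 0.08, and the observed SD was at least 2 times the value expected from counting in 6781 genes (99.9%). The median was 0.55 when embryos 3 and 10 were left out, and 0.26 on the scale of the variance stabilising transformation of DESeq2.

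The spread fell with the level of the gene. The median SD was 1.05 in the 2138 genes of 10 to 30 CPM, 0.59 in the 2535 genes of 30 to 100 CPM, 0.40 in the 1481 genes of 100 to 300 CPM, 0.34 in the 502 genes of 300 to 1000 CPM and 0.32 in the 132 genes of at least 1000 CPM. Across genes, which are not independent replicates, Spearman's rho between mean CPM and SD was -0.78. A list of the most variable genes is therefore mostly a list of weakly expressed genes, and a second list was taken among the 2115 genes of at least 100 CPM. Of the 6788 genes, 395 had no read in at least 1 embryo.

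**Figure D1:**
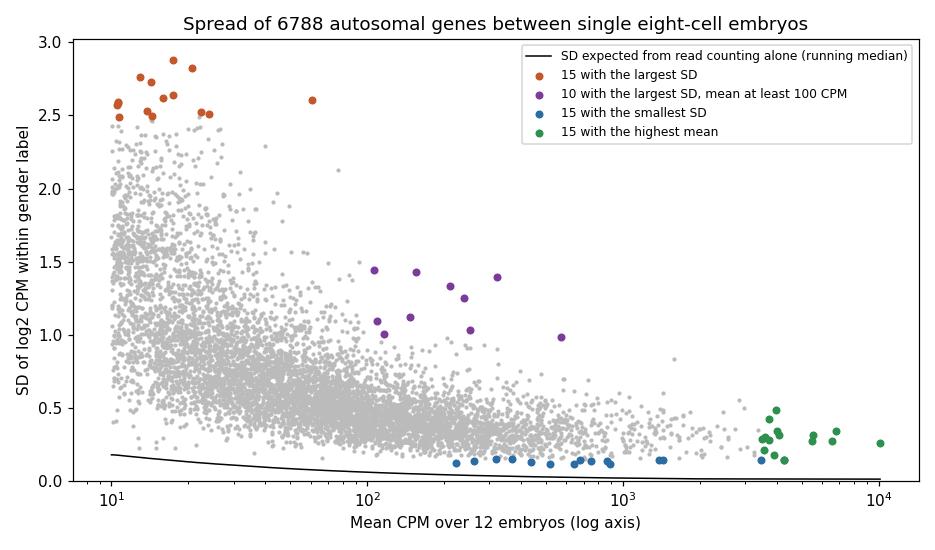
Mean CPM over 12 embryos (x axis, log scale) against the SD of log2 CPM within gender label (y axis) for 6788 autosomal genes (grey points), with the 15 genes of largest SD (orange), the 10 of largest SD with a mean of at least 100 CPM (purple), the 15 of smallest SD (blue) and the 15 of highest mean CPM (green). The black line is the running median of the SD that read counting alone would give. The cloud falls from a median SD of 1.05 at 10 to 30 CPM to 0.32 at 1000 CPM or more and stays above the line.

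Paip2, a regulator of poly(A)-binding protein, varied least of all genes, with an SD of 0.11 and 435 CPM in embryo 2, 603 CPM in embryo 12 and a median of 502 CPM. Next came the initiation factors Eif2s1 (SD 0.12, from 559 to 745 CPM) and Eif4h (SD 0.12, from 750 to 977 CPM), the mannose-6-phosphate receptor M6pr (SD 0.12, from 180.1 to 259 CPM) and Polr2e, a subunit shared by the RNA polymerases (SD 0.13, from 383 to 488 CPM). The highest embryo of Polr2e had 1.27 times the level of the lowest. Proteasome genes (Adrm1 and Psmd7, each a subunit or receptor of the regulatory particle), the chaperonin subunit Cct8, the autophagy protein Map1lc3b, Rpl4, the helicase Eif4a1, the ATP synthase subunit Atp5b, the actin cross-linker Actn4, the pentose phosphate enzyme Pgd and the membrane protein gene Tmem85 completed the 15. These 15 genes had mean levels of 223 to 4258 CPM and SDs of 0.11 to 0.15, against 0.01 to 0.04 from counting alone. Their SDs were 0.09 to 0.16 without embryos 3 and 10.

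The 15 genes with the largest SD, from 2.49 to 2.88, had mean levels of 10.5 to 61.0 CPM, and each had no read in at least 1 embryo. Dazl, the germ cell RNA-binding protein made in oocytes, was highest in embryos 8, 5 and 4, with 58.9, 53.9 and 42.6 CPM. It had 21.6 and 17.3 CPM in embryos 2 and 6, between 3.56 and 5.88 CPM in embryos 7, 11 and 12, and no read in embryos 1, 3, 9 and 10. Amotl2, an angiomotin that acts on Yap in the Hippo pathway, had the highest mean of the 15. It was at 150 CPM in embryo 10, 129 CPM in embryo 6 and 126 CPM in embryo 3, whereas embryo 7 had 0.149 CPM and embryo 12 no read. Enc1, an actin-binding protein, was at 53.5 CPM in embryo 1 and 50.1 CPM in embryo 12 and had no read in embryos 3 and 7.

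Some others of the 15 were high in embryos 3 and 10, and a weak gene could reach a mean of 10 CPM through the embryos where it was high. The sterol carrier Stard4 had 72.9 and 42.6 CPM there and 63.0 CPM in embryo 9, against no read in embryos 7, 8 and 12. The adhesion protein gene Mpzl2 had 73.6 and 29.5 CPM there and no read in embryos 2, 5, 7 and 12. The prostaglandin E synthase Ptges had 60.9 and 80.8 CPM there, with 0.161 CPM in embryo 1 and no read in embryo 7. Pkp2 and Nfe2l2 were each high in only 1 of these 2 embryos. Pkp2, a plakophilin of desmosomes, was highest in embryo 3, with 75.6 CPM. It had 20.5 CPM in embryo 10, under the 41.7 and 29.9 CPM of embryos 2 and 4. The stress regulator Nfe2l2 was at 54.3 CPM in embryo 1, 47.0 CPM in embryo 10 and 15.35 CPM in embryo 3. It had no read in embryos 2, 8 and 9. The remaining genes were Gm13119, the thiamine transporter Slc19a2, Usp29, 2410012M07Rik, the ADP/ATP carrier Slc25a31, E130012A19Rik and the Abl interactor Abi2. Of the 15, 5 remained among the 15 largest SDs without embryos 3 and 10, and 8 without embryo 1.

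Among the 2115 genes of at least 100 CPM, the 10 most variable had SDs of 0.99 to 1.44, against 0.02 to 0.06 from counting alone, and the highest embryo had 5.82 to 25.4 times the level of the lowest. The leading gene was Tmem64, a membrane protein gene (SD 1.44). It was at 238, 232, 171 and 162 CPM in embryos 3, 10, 12 and 5, and at 10.5 and 16.3 CPM in embryos 6 and 1. Btg1, an antiproliferative protein, was at 576 CPM in embryo 10 and 331 CPM in embryo 3 and at 22.7 and 25.5 CPM in embryos 7 and 4.

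Socs3, the feedback inhibitor of cytokine signalling through Stat3, split the embryos. In 9 embryos it was between 311 and 581 CPM, while embryos 1, 10 and 3 had 65.4, 65.2 and 33.2 CPM, so that these 3 lay below all others by a wide gap. Klf17, a Krüppel-like factor of the early embryo, was at 34.1 CPM in embryo 3 and 40.1 CPM in embryo 10 and between 140 and 511 CPM in the other 10. Spic, an Ets family factor, was between 544 and 961 CPM in 8 embryos and at 165, 192, 215 and 267 CPM in embryos 7, 1, 10 and 3.

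Id3, an inhibitor of basic helix-loop-helix factors, was between 185 and 422 CPM in 10 embryos, with 94.5 CPM in embryo 7 and 35.4 CPM in embryo 1. Foxn2, a forkhead factor, was lowest in the same embryo 1, at 23.04 CPM, with 55.9 and 59.6 CPM in embryos 7 and 11 and 139 to 420 CPM in the other 9. Elf3, an epithelial Ets factor, ran from 29.5 CPM in embryo 1 to 367 CPM in embryo 10. Etnk1, an ethanolamine kinase, went the other way, from 21.9 CPM in embryo 3 to 251 CPM in embryo 7. The transcript 8430427H17Rik was at 13.05 CPM in embryo 1 and at 216 CPM in embryo 7.

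The spread of several of these genes came from few embryos. Without embryos 3 and 10 the SD of Klf17 was 0.58 in place of 1.25 and that of Socs3 0.87 in place of 1.40, and 6 of the 10 genes remained among the 10 most variable of their level. Without embryo 1 the SD of Id3 was 0.57 in place of 1.03 and that of 8430427H17Rik 0.65 in place of 1.00, and 7 of the 10 remained. Tmem64 kept an SD of 1.32 and 1.37 in the 2 cases, and Btg1 1.09 and 1.51.

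**Figure D2:**
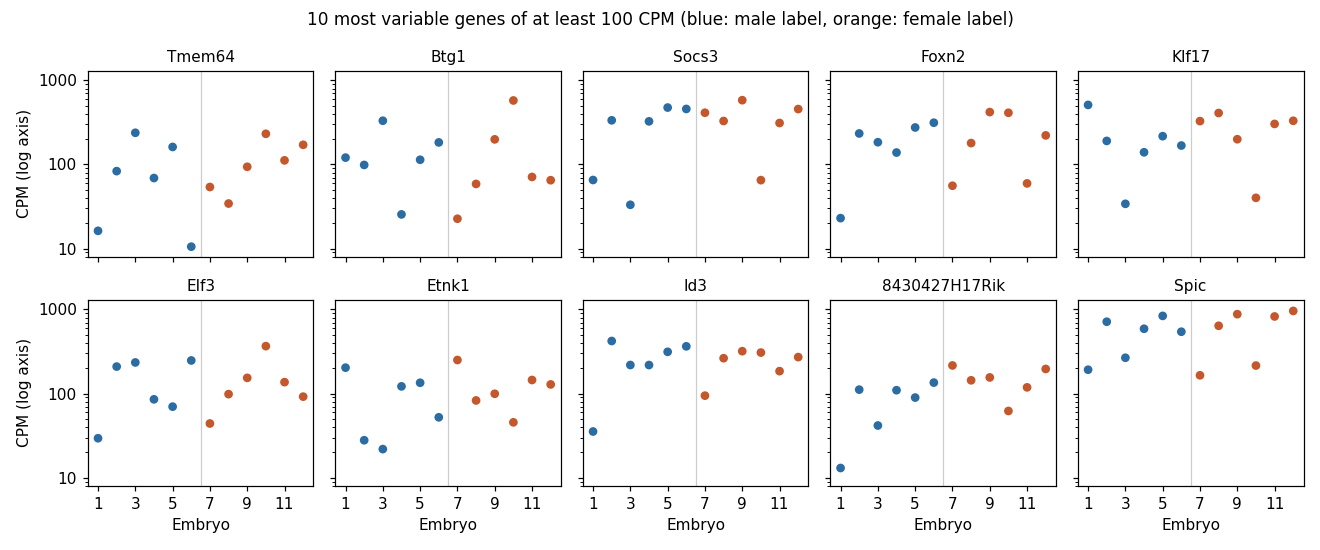
CPM (y axis, log scale) in each of the 12 embryos (x axis) for the 10 genes of largest SD among those with a mean of at least 100 CPM, with 1 point per embryo (blue male label, orange female label). Klf17 is low in embryos 3 and 10 (34.1 and 40.1 CPM), Socs3 in embryos 1, 3 and 10, and Id3 and Foxn2 are lowest in embryo 1.

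Several of these 10 genes were high and low in the same embryos. Pearson's r over 12 embryos after centring within label is given as a description, since the genes were chosen for their spread. It is not given without embryos 1, 3 or 10, from which much of the spread of some of these genes came. Foxn2 and Id3 had an r of 0.91 and Socs3 and 8430427H17Rik one of 0.82. Klf17 and Etnk1 had an r of 0.72, and both were low where Elf3 was high, with r = -0.76 for Klf17 and Elf3 and r = -0.90 for Etnk1 and Elf3. Btg1 had an r of 0.67 with Elf3 and of -0.65 with Klf17. Elf3 also had an r of 0.76 with Id3 and of 0.74 with Foxn2, and Socs3 one of 0.69 with Spic, so the genes did not form separate sets. Among all genes of at least 100 CPM, the nearest to Socs3 was the histone demethylase Kdm5b (r = 0.96), the nearest to Id3 was the RNA-binding protein Rbm47 (r = 0.96), and the nearest to Btg1 was Crip2 (r = 0.93). At the other end, Klf17 was most opposed to the actin regulator Coro1c (r = -0.92) and Etnk1 to the replication licensing inhibitor Gmnn (r = -0.91). Each of these partners was the extreme among all genes of at least 100 CPM, so a large r follows in part from the choice.

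Variation over all 6788 genes was not dominated by a single axis. Of the variance of the centred values, principal components 1 to 4 held 20.3%, 14.8%, 13% and 12.1%. Scores are given as the root mean square log2 shift of a gene along the component. Component 1 separated embryos 3 (0.89) and 10 (0.59) from the other 10, which lay between -0.29 and 0.10. Component 2 separated embryo 1 (0.80) from the others, which lay between -0.35 and 0.25. Component 3 set embryos 12 and 3 (0.61 and 0.42) against embryos 9 and 10 (-0.44 and -0.33), and component 4 set embryo 7 (0.56) against embryos 12 and 1 (-0.49 and -0.38). The first component thus described a pair of embryos and the second a single embryo. Without embryos 3 and 10 the first component of the remaining 10 held 21.1%.

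**Figure D3:**
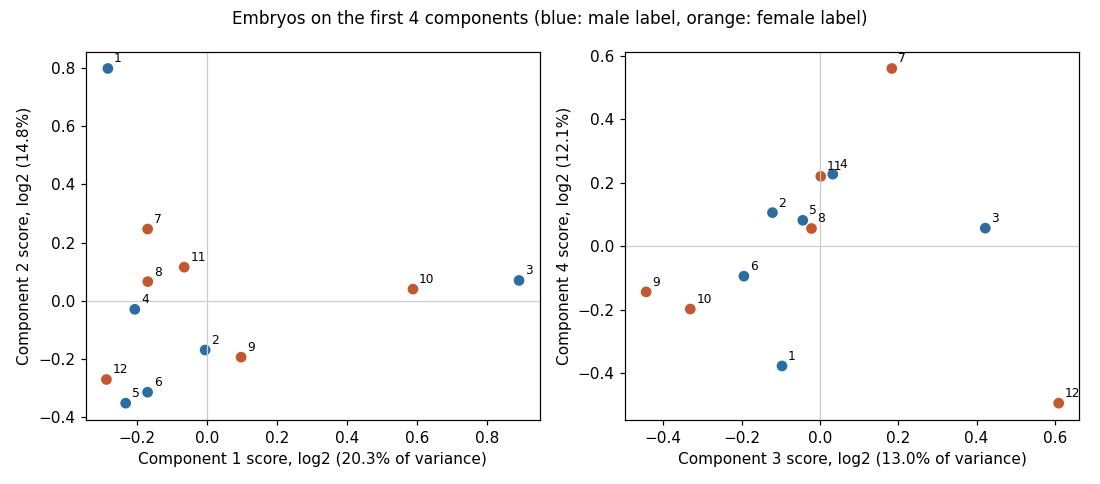
Scores of the 12 embryos (blue male label, orange female label, numbered) on principal components 1 and 2 (left) and 3 and 4 (right) of log2 CPM centred within gender label. Axes give the root mean square log2 shift per gene, and embryos 3 and 10 stand apart on component 1 with 0.89 and 0.59 and embryo 1 on component 2 with 0.80.

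Of all genes, Hspe1, the mitochondrial co-chaperonin, had the highest positive correlation with component 1 (r = 0.95), with 217 CPM in embryo 3, 143 CPM in embryo 10 and 46.5 to 90.9 CPM in the others. Among those that followed were the mitochondrial ribosomal protein Mrpl35, the Toll-like receptor partner Ly96, the splicing protein gene Zcrb1, the ribosomal protein genes Rps24 and Rpl32, the proteasome subunit Psma3, Sec61b of the protein translocon and 2310044H10Rik, with r between 0.89 and 0.93. Rps24 was at 1740 CPM in embryo 3, 965 CPM in embryo 10 and 410 to 835 CPM in the others. In 9 of the 10 genes embryo 3 was the highest of all embryos.

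At the opposite end, Brca2, which acts in the repair of broken DNA, was at 36.6 CPM in embryo 3 and 63.5 CPM in embryo 10 and between 112 and 252 CPM in the others (r = -0.96). Tmem194, a nuclear envelope gene, was at 4.97 and 30.1 CPM in these 2 embryos and between 43.4 and 152 CPM elsewhere. Gm608, Zscan5b (a zinc finger gene), Tatdn3, Ccdc82, Gm13718, Gdap1 and the importin Tnpo3 were also at this end, with r between -0.97 and -0.94. All 10 were lowest in embryo 3, which for Gdap1 had no read, as had embryo 10. The median transcript length was 892 bases (from 564 to 3721) for the 10 genes at the first end and 4100 bases (from 1242 to 12708) for the 10 at the other.

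Over the whole set the relation with length was weak. Across the 6708 genes with a known length (98.8%), Spearman's rho between length and the correlation with component 1 was -0.21, a description across genes. The median correlation with component 1 was 0.20 in the 1344 shortest genes (371 to 1733 bases) and -0.13 in the 1342 longest (4932 bases or more). In embryo 3 the mean log2 difference from the label mean was 0.08 in the shortest and -0.23 in the longest, and in embryo 10 it was 0.23 and -0.17. Embryo 4 had -0.09 and 0.23. Embryo 1, with a score of -0.28 on the other side of component 1, had 0.08 and -0.19, close to embryo 3, so the difference by length did not follow the score in every embryo. Embryos 3 and 10 also had the lowest shares of reads outside genes, 8.63% and 8.71%, and the part of length and of this share in the gene differences was not tested.

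On component 2 embryo 1 had the outlying score. At the end where embryo 1 was high stood the cyclophilin Ppie, with 301 CPM in embryo 1 and 106 to 163 CPM in the others, and Pdrg1, a gene induced by DNA damage, with 237 CPM in embryo 1 and 32.5 to 119.9 CPM in the others. The endosomal lipid kinase scaffold Vac14, Cfdp1, the replication factor Gins3, 0610007P14Rik, D19Bwg1357e, the steroid and fatty acid enzyme Hsd17b12, 2310002L13Rik and Cbwd1 completed the 10 (r from 0.83 to 0.91). Embryo 1 was the highest embryo for 6 of them, embryo 7 for Cfdp1 and D19Bwg1357e and embryo 11 for Hsd17b12 and 2310002L13Rik. At the end where embryo 1 was low, Rbm47 was at 51.6 CPM there and 152 to 291 CPM in the others, and the mitochondrial superoxide dismutase Sod2 at 99.2 CPM against 237 to 482 CPM. The splicing genes Srrm2 and Srsf7, the ubiquitin ligase Ube3b, Abcf1, the H3K4 methyltransferase subunit Wdr5, the spindle checkpoint protein Mad2l1, the Mediator subunit Med24 and the mRNA export gene Thoc6 were also lowest in embryo 1 (r from -0.98 to -0.93). Embryo 1 had the highest share of reads outside genes, 14.4%, and the highest TMM factor, 1.16, and their part was not tested.

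Genes were next grouped by function, to ask whether genes known to act together were high and low in the same embryos. The measure was the median Pearson correlation over all pairs of a list's members, which was 0.00 over all 6788 genes. Counts of members above the mean of their label stand without the share of all 6788 genes above it in the same embryo. They therefore do not show how far a list differed from the other genes of that embryo. Members had to average 10 CPM over these same embryos, so a weak gene could enter a list through the embryos where it was high. Where members beside the highest, the most variable and the least variable of a list are named, they were chosen after their values were seen.

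The 74 cytoplasmic ribosomal protein genes were the list that moved most as a block, with a median pair correlation of 0.72. Their mean log2 difference from the label mean was 0.64 in embryo 3, 0.50 in embryo 10, 0.27 in embryo 9 and 0.24 in embryo 2, and between -0.37 and 0.04 in the other 8. In embryo 3, 71 of the 74 genes were above the mean of their label, in embryo 10 it was 73, and in embryo 4 none was. Summed over the 83 ribosomal protein genes in the tables, levels ran from 71374 to 124496 CPM. Rpl31 followed the mean of the list most closely (r = 0.99), with 558 CPM in embryo 3, 460 CPM in embryo 10 and 185 CPM in embryo 11. Rps25 was at 771, 533 and 206 CPM in embryos 3, 10 and 1. Without embryos 3 and 10 the median pair correlation was 0.59, and without embryo 3 or embryo 10 alone, or any other single embryo, it was between 0.66 and 0.75. Many of these transcripts are short, with median lengths of 819 bases under 1000 CPM and 1101.5 bases from 1000 CPM. The shortest genes of the whole set (371 to 1733 bases) had means of 0.08, 0.23, 0.09 and 0.08 in embryos 3, 10, 9 and 2. They also had 0.08 in embryo 1, where the ribosomal list was at -0.36. The part of length was not tested.

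The block was not complete. Of the 74 genes, 31 had a correlation of at least 0.9 with the mean of the list and 6 one under 0.5. The 6 were Rpl3 (r = 0.12), Rplp0 (r = 0.22), Rpl8 (r = 0.32), the testis-type paralogue Rpl10l (r = 0.36), Rpl41 (r = 0.36) and Rps3a (r = 0.43). Rplp0 was at 4260 CPM in embryo 3 and 5743 CPM in embryo 10, and its highest level was 6908 CPM in embryo 9. The 28 ribosomal protein genes of at least 1000 CPM had a median correlation of 0.77 with the list mean, and the 46 under 1000 CPM one of 0.92. Most variable was Rpl36 (SD 0.75, from 40.1 to 175 CPM) and least variable Rpl4 (SD 0.14). Ribosomal protein genes have many processed pseudogenes, and how the counting divided reads between them is not stated, so single members are uncertain.

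Transcription of ribosomal protein genes typically starts in a run of pyrimidines (C and T), and such a run at the 5′ end of the mRNA places its translation under common control. To show what the promoters of genes inside and outside the block look like, the stretch from 35 bases before to 24 bases after the RefSeq start (GRCm38.p6) is given for the 4 genes nearest to the list mean and the 3 farthest from it that have an entry, chosen after their values were seen. Capitals mark the longest run of C and T in the stretch.
Rpl31 (chr1:39367816-39367875, plus strand): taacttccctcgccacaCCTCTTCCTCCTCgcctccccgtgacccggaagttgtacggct
Rps12 (chr10:23787185-23787244, minus strand): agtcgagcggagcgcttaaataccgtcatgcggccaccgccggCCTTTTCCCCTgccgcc
Rps19 (chr7:24884557-24884616, plus strand): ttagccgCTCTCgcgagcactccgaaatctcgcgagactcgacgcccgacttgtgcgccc
Rps25 (chr9:44407679-44407738, plus strand): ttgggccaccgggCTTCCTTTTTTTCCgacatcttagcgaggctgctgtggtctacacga
Rpl41 (chr10:128549144-128549203, minus strand): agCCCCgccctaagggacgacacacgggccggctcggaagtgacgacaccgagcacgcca
Rpl10l (chr12:66284377-66284436, minus strand): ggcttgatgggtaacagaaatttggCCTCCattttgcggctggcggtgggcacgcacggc
Rplp0 (chr5:115559432-115559491, plus strand): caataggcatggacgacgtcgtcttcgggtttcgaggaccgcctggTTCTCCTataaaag
Over the 53 ribosomal protein genes with an entry the longest run on the sense strand had a median of 9 bases, against 6 bases over 27018 promoters of all genes. A run of 8 or more was present in 54.7% of the ribosomal protein genes and in 23.5% of all promoters. Among ribosomal protein genes with a correlation of at least 0.9 with the list mean it was present in 13 of 23, and among those under 0.7 in 2 of 9, which is a description of few genes. RefSeq starts can lie some bases away from the true start, so a run outside the stretch is not seen.

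The nuclear genes of oxidative phosphorylation were the next most coherent list, with a median pair correlation of 0.28 over 72 members. They were above the mean of their label in 62 of 72 genes in embryo 3 and 56 of 72 in embryo 10 (mean log2 difference 0.45 and 0.42), and in 14 of 72 in embryo 11 (-0.32). Small subunits of complex IV and complex III followed this mean, such as Cox6a1 and Uqcr10 with r = 0.93. The catalytic ATP synthase subunit Atp5b, the highest and least variable member (1384 CPM, SD 0.15), did not (r = -0.08). The most variable member was Ndufs4 (SD 1.11, from 2.14 to 30.2 CPM). Without embryos 3 and 10 the median pair correlation was 0.17.

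Other lists of housekeeping function were less coherent. The 37 translation factors had a median pair correlation of 0.12 (-0.01 with library totals in place of TMM factors) and the 46 splicing factors one of 0.12, and both were lowest in embryo 1 (mean log2 difference -0.25 and -0.31). Without embryo 1 both correlations were 0.04, and without embryo 3 they were 0.05 and 0.06. Among translation factors Eif3k, a subunit of eIF3, varied most (SD 0.72), with 507 CPM in embryo 3 and 79.7 CPM in embryo 8, and Eif2s1 least. The 32 proteasome genes (0.04), the 44 genes of nucleolar ribosome assembly (0.04), the 36 lysosome and autophagy genes (0.00) and the 14 genes of glycolysis (-0.03) were close to the 0.00 of all genes. Rrp9, which binds the U3 small nucleolar RNA, was the most variable gene of ribosome assembly (SD 1.21), with 4.51 CPM in embryo 3, 34.2 CPM in embryo 10 and 53.8 to 120 CPM in the others, and Fbl, the methyltransferase of box C/D particles, the least (SD 0.16). Within the proteasome Psmd9, an assembly chaperone, was at 14.5 CPM in embryo 12 and at 51.6 to 98.4 CPM in the others.

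Of the transcripts stored by the oocyte, 13 of the 48 oocyte genes in the tables and 6 of the 13 genes of the subcortical maternal complex were members, beside 30.7% of all autosomal genes. Both lists had low means in embryos 3 and 10, with mean log2 differences of -0.61 and -0.77 for the oocyte list and of -1.07 and -0.85 for the maternal complex. The genes were not all low, since 5 and 3 of the 13 oocyte members were above the mean of their label in these embryos. For the complex it was 2 and 1 of the 6 members. Embryo 3 had the most genes of the whole set without a read, 122, and embryo 10 had 38, against a median of 38.5. The part of genes without a read in the list means was not tested. Khdc1b, listed with the complex, was at 6.77 and 14.6 CPM in embryos 3 and 10 and between 28.0 and 133 CPM in the others. Tle6, a subunit of the complex, was at 0.677 CPM in embryo 3, a level of 3 reads, and at 11.6 to 38.4 CPM in the others. Nlrp5, another subunit, was lowest in embryo 10, at 1.31 CPM, and highest in embryo 1, at 41.7 CPM. Not every maternal transcript was low in embryos 3 and 10. Dppa3 was highest in embryo 3 (3854 CPM), and Padi6, which builds the lattices of the oocyte cytoplasm, was at 61.6 and 46.9 CPM in embryos 3 and 10 against 34.9 to 128 CPM elsewhere. The median pair correlations were 0.03 and 0.02, and both were -0.03 without embryos 3 and 10.

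Of the 41 genes of early genome activation in the tables, 11 were members, with a median pair correlation of -0.04 (-0.07 to 0.07 with 1 embryo left out). The homeobox gene Obox6 had the highest level (1579 CPM), from 807 CPM in embryo 1 to 2403 CPM in embryo 11. Gm13119 was the most variable of them, with 80.2 CPM in embryo 1, no read in embryos 3, 5, 7 and 12 and 6.38 to 23.8 CPM in the other 7, and Gm16367 the least variable (SD 0.28).

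Of the 57 regulators of pluripotency and of the first lineages 41 were members (median pair correlation 0.14, and 0.09 without embryo 1 or embryo 7). Embryos 1 and 7 were low over the list, with mean log2 differences of -0.42 and -0.46. Gata6, a factor of primitive endoderm, was at 251 CPM in embryo 1 and 477 CPM in embryo 7 and between 499 and 804 CPM in the others. Pou5f1 was at 95.4 CPM in embryo 7 and 126 CPM in embryo 1 and reached 687, 567 and 512 CPM in embryos 5, 6 and 9. Klf5, a Krüppel-like factor of both first lineages, was at 49.8, 56.7 and 67.0 CPM in embryos 7, 3 and 1 and at 264 CPM in embryo 12. Dppa4 was the least variable member (SD 0.22, from 339 to 594 CPM) and the transcription factor gene Utf1 the most variable (SD 2.25), with 67.4 CPM in embryo 10 and no read in embryos 7 and 12. Dppa2, the partner of Dppa4 on chromatin, had the highest mean of the list (817 CPM). Dppa5a was an exception in embryo 3, at 1206 CPM against 235 to 409 CPM in the other 11.

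Genes of adhesion, polarity and junctions, which compaction uses, were high in embryo 10 (mean log2 difference 0.71) and embryo 3 (0.36) and low in embryos 7, 1 and 12 (-0.54, -0.53 and -0.37), with 38 of 52 genes as members. Epcam, an epithelial adhesion molecule, was at 102 CPM in embryo 10, at 9.83 CPM in embryo 1 and at 6.11 CPM in embryo 7. Ctnna1, which ties cadherins to actin, was at 338 and 332 CPM in embryos 3 and 10 and at 139 and 132 CPM in embryos 1 and 7. The water channel gene Aqp3 had 79.7 CPM in embryo 10, 1.77 CPM in embryo 1 and no read in embryo 7. Actg1, the cytoplasmic gamma actin gene and the highest member, was at 2928 and 2927 CPM in embryos 9 and 6 and at 557 and 627 CPM in embryos 7 and 1. Atp1b3, a sodium pump subunit, went against the list (r = -0.80 with its mean), at 102 CPM in embryo 10 and 344 CPM in embryo 7. The junctional protein F11r was the least variable member (SD 0.27) and Pkp2 the most. The median pair correlation of the list was 0.08, and 0.04 without embryo 10.

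The 17 p53 targets that were members stood out in embryo 1, with a mean log2 difference of 0.68, followed by embryo 4 with 0.51, and were lowest in embryo 3 with -0.58. Their median pair correlation was 0.15, and it was 0.09 without embryo 1 and 0.23 without embryo 7 or embryo 9. The p53 antagonist Mdm2 was at 183 CPM in embryo 1 and at 33.6 to 76.8 CPM in the other 11. Phlda3, an inhibitor of Akt, was at 99.2 and 53.3 CPM in embryos 1 and 4, at 20.5 CPM in embryo 6 and at or under 9.71 CPM in the others. Those others alone would not have brought it to a mean of 10 CPM, so it entered the list through the embryos where it was high. The cell cycle inhibitor Cdkn1a was at 113 CPM in embryo 4, 98.1 CPM in embryo 1 and 12.6 to 65.3 CPM in the others. Within the list the highest and least variable member was Ei24 (257 CPM, SD 0.29) and the most variable the DNA repair gene Xpc (SD 2.09).

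Genes of the cell cycle differed less. The 48 mitosis genes had their lowest mean in embryo 10 (-0.36), where 13 of 48 were above the mean of their label, and in embryo 1 (-0.24). Ccnb1, cyclin B1 and the highest of them, was at 785 CPM in embryo 10 and 1156 to 2144 CPM in the others. Cenpf, a kinetochore protein, varied most (SD 1.03) and the passenger complex subunit Cdca8 least (SD 0.19). The 51 replication genes were lowest in embryo 1 (-0.23) and highest in embryo 3 (0.22). Orc1, of the origin recognition complex, was at 0.483 CPM in embryo 1 and at 7.27 to 51.0 CPM in the others, while the single-strand binding protein Rpa2 had an SD of 0.15. The median pair correlations were 0.07 and 0.04.

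In the remaining lists a few embryos stood out as well. The 5 immediate early genes that were members (Btg1, Ier2, Myc, Spry2 and Zfp36) were low in embryo 7 (-1.09), where all 5 were under the mean of their label, and in embryo 1 (-0.76). Their median pair correlation was 0.24, with 0.03 left without embryo 1 and 0.12 without embryo 7. The 13 genes of DNA methylation were low in embryo 1 (-0.49), where the maintenance methyltransferase Dnmt1 was at 5.64 CPM against 20.5 to 59.3 CPM in the others, and their median pair correlation was 0.05, or -0.06 without embryo 1. The 16 sterol genes had high means in embryos 9 and 10 (0.70 and 0.51) and low means in embryos 7 and 12 (-0.64 and -0.59). Of the 16 genes, 12, 10, 6 and 7 were above the mean of their label in these 4 embryos. Their median pair correlation was 0.04, so the genes did not move as a block. Their most abundant member, the squalene synthase Fdft1, was at 199 and 221 CPM in embryos 10 and 3 and at 315 to 632 CPM in the others. The 39 chaperone and stress genes had a median pair correlation of 0.07 and means between -0.20 and 0.22, and the 41 genes of chromatin and histone variants one of 0.06. H3f3a, a gene of the histone variant H3.3, had the highest level of the last (1438 CPM), from 1001 CPM in embryo 1 to 2225 CPM in embryo 10, and the histone demethylase Kdm6b was steady between 9.19 and 20.3 CPM (SD 0.22).

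**Figure D4:**
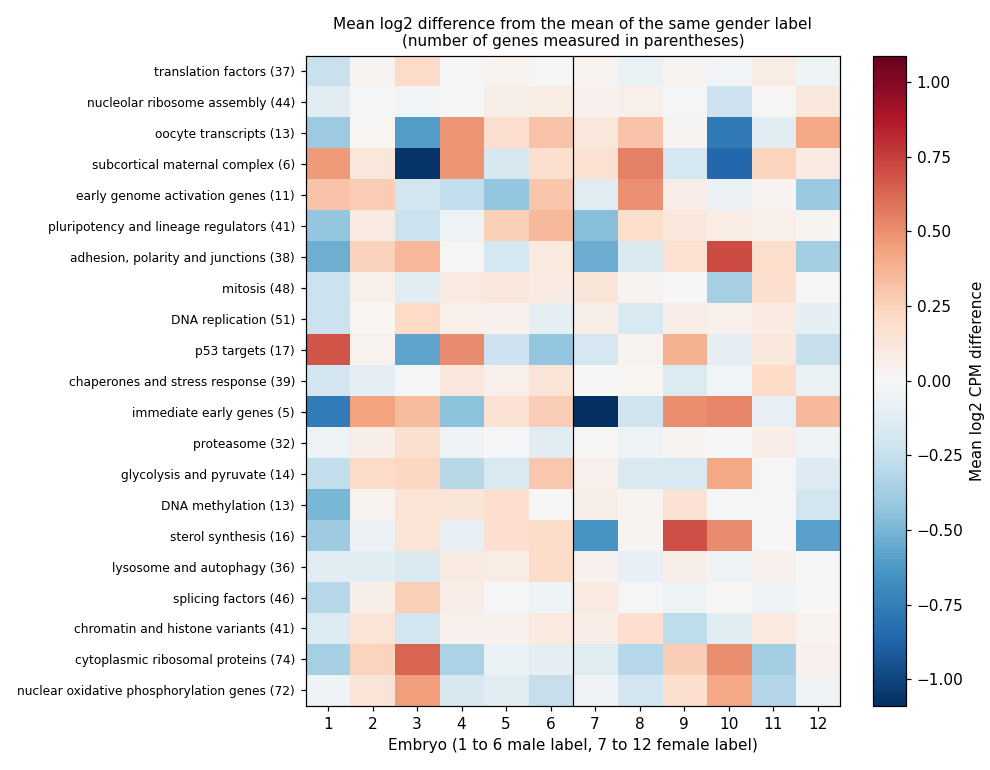
Mean log2 difference of each gene list (rows, with the number of member genes in parentheses) from the mean of the embryos with the same gender label, for embryos 1 to 12 (columns), with red above and blue below that mean. Ribosomal protein genes are high in embryos 3 and 10 (0.64 and 0.50) where the oocyte and maternal complex lists have low means. The p53 targets are high in embryo 1 (0.68), and immediate early genes are lowest in embryo 7 (-1.09).

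Single pairs of genes whose products act together or whose genes lie side by side were then tested. The pairs were chosen with earlier results of these data known, so their p-values do not come from a blind choice. Of 22 pairs, 15 had both genes among the members. Each was tested over the 12 embryos by a two-sided permutation test with 100000 reorderings within gender label, and p-values were adjusted over the 15 pairs by the Benjamini-Hochberg method. An adjusted p under 0.05 for Pearson's r was reached by 3 pairs (20% of the 15), all with a positive correlation. None passed for Spearman's rho, for which the lowest adjusted p was 0.0747. The share that pairs of other members would reach was not computed, so this count is not a result about genes that act together.

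Krt8 and Krt18 encode the keratins that pair in the first epithelium of the embryo, and their levels had an r of 0.84 (permutation p = 0.00139, adjusted p = 0.0208). Krt8 was at 85.5 CPM in embryo 10, 65.0 CPM in embryo 3 and 41.6 CPM in embryo 1, between 5.02 and 34.0 CPM in 7 embryos, and had no read in embryos 8 and 12. Krt18 was at 175 CPM in embryo 10 and 110 CPM in embryo 1, at 2.14 CPM in embryo 8 and at 4.68 to 62.6 CPM in the other 9. The embryos without Krt8 were thus among the 3 lowest for Krt18. Spearman's rho was 0.77 (permutation p = 0.00896, adjusted p = 0.0747), and r without the 2 embryos farthest from the median of Krt8 (8 and 12) was 0.84. The adjusted p was 0.0586 without embryo 5 and under 0.05 without any other single embryo.

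Cdh1 (E-cadherin) and Ctnnb1 (beta-catenin, its cytoplasmic partner) had an r of 0.78 (permutation p = 0.00317, adjusted p = 0.0238) and a rho of 0.69 (permutation p = 0.0199, adjusted p = 0.0747). Cdh1 was lowest in embryos 7, 1 and 9, at 64.1, 80.9 and 83.6 CPM, and highest in embryo 8, at 185 CPM. Ctnnb1 was lowest in embryos 1 and 7, at 179 and 196 CPM, and highest in embryo 3, at 344 CPM. Without embryos 1 and 7, the farthest from the median of Cdh1, r was 0.58, and the adjusted p was 0.116 without embryo 1, 0.0786 without embryo 7, 0.0575 without embryo 3 and 0.0586 without embryo 5, so the call rests on each of these embryos.

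Hspd1 and Hspe1, the chaperonin and co-chaperonin that fold proteins in mitochondria, had an r of 0.81 (permutation p = 0.00667, adjusted p = 0.0333) and a rho of 0.74 (permutation p = 0.0146, adjusted p = 0.0747). Hspd1 was at 989 CPM in embryo 3 and between 307 and 578 CPM in the other 11. Hspe1 was highest in the same embryo and second highest in embryo 10, where Hspd1, at 431 CPM, was in the middle of its range. Without embryos 3 and 5 r was 0.54, and without embryo 3 alone it was 0.57 with an adjusted p of 0.2198. The adjusted p was also above 0.05, between 0.0541 and 0.114, without embryo 1, 2, 4, 5, 6 or 12, where r stayed between 0.79 and 0.82.

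The 2 genes lie head to head on chromosome 1 and share the stretch between them. RefSeq (GRCm38.p6) places the start of Hspe1 at 55088148 on the plus strand and the nearer of 2 starts of Hspd1 at 55087932 on the minus strand, which leaves 215 bases. The other start of Hspd1, at 55088243, lies beyond that of Hspe1. The 215 bases are shown on the plus strand, read towards Hspe1. Capitals mark matches to a form of the heat shock element made of TTC, GAA and TTC in this order with 2 bases of any kind between neighbours, searched on both strands.
Hspd1 and Hspe1, between the starts (chr1:55087933-55088147): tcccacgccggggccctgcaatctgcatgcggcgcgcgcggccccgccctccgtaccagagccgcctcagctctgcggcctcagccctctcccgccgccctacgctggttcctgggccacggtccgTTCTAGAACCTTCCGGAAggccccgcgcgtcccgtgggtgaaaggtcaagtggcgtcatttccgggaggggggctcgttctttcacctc
The capitals hold 2 overlapping matches, 1 on each strand. The motif was present in 143 of 27018 promoters of 300 bases (0.529%) and in 3 of the 34 promoters of chaperone and stress genes with an entry (Hspe1, Hsph1 and Dnajb6). These counts used a single listed start per gene. Hspd1, with 2 starts, was therefore not counted, although the marked stretch also lies upstream of its nearer start. A match describes the sequence and not binding.

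**Figure D5:**
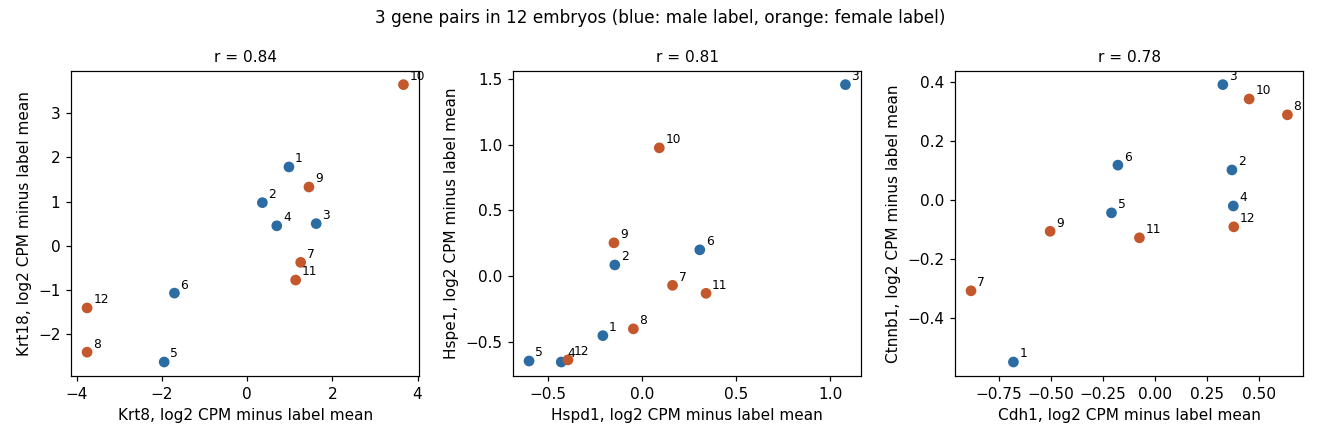
Log2 CPM minus the mean of the gender label in 12 embryos (numbered, blue male label, orange female label) for Krt8 and Krt18 (r = 0.84), Hspd1 and Hspe1 (r = 0.81) and Cdh1 and Ctnnb1 (r = 0.78). Embryo 10 lies at the upper right for Krt8 and Krt18 and embryo 3 at the upper right for Hspd1 and Hspe1, and embryos 1 and 7 lie at the lower left for Cdh1 and Ctnnb1.

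The other 12 pairs did not pass. The chaperones Hspa8 and Hsp90ab1 had an r of 0.69 (permutation p = 0.0546, adjusted p = 0.205) and the elongation factors Eef1a1 and Eef2 one of 0.60 (permutation p = 0.0689, adjusted p = 0.205). The nucleolar proteins Npm1 and Ncl had an r of -0.55 (permutation p = 0.0822, adjusted p = 0.205). The correlations were 0.42 for Tfap2c and Tead4, regulators of trophectoderm, 0.40 for the p53 targets Mdm2 and Ccng1, 0.36 for the proteasome subunits Psma1 and Psmb1, 0.33 for Dppa2 and Dppa4 and 0.31 for the replicative helicase subunits Mcm2 and Mcm5. They were 0.07 for Cdc20 and Plk1, 0.06 for cyclin B1 and its kinase Cdk1 and 0.05 for Dnmt1 and its partner Uhrf1, and -0.25 for Rplp0 and Rps6. Of the pairs not tested, Nanog and Pou5f1, Nlrp5 and Ooep, Zp2 and Zp3, Gdf9 and Btg4, and Cdx2 and Gata3 each had 1 gene under 10 CPM, and Khdc3 of the pair Khdc3 and Tle6 was not found in the tables by this symbol.

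The same 6788 genes varied less between the samples of the other stages. Their median SD of log2 CPM within gender label was 0.11 over the 4 ES cell lines, 0.14 over the 24 fetal livers and 0.23 over the 24 adult livers, against 0.60 over the embryos. The genes had to reach 10 CPM in the embryos only, and a gene with next to no reads in another stage can hardly vary there with a pseudocount of 0.5 CPM, so part of this difference is fixed by the choice of genes. The other stages were made from total RNA with another kit and hold many of these genes at other levels, which leaves stage and protocol confounded (they cannot be told apart), and no test was made. Klf17, at 239 CPM in the embryos, averaged 0.392 CPM in ES cells. The 15 least variable genes of the embryos had SDs of 0.02 to 0.14 in ES cells, 0.08 to 0.21 in fetal liver and 0.11 to 0.28 in adult liver, beside the 0.11 to 0.15 for which they were chosen in embryos.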

How the data were processed

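The authors deposited raw counts of reads per gene from HTSeq, without normalisation. Per their methods and the submitters' processing notes, reads had been aligned to mm10 with TopHat2 2.0.4, Bowtie2 2.1.0 and SAMtools 0.1.18. Duplicates had been filtered with Picard, which can lower the counts of the most abundant short transcripts. Strand handling in counting is not stated for these libraries. Rows that name no gene were left out of library sizes (8.63% to 14.4% of reads lay outside genes). Genes were placed on GRCm38 by symbol or synonym (99.1% of 23338).

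The 12 embryos were normalised with TMM (edgeR 4.0.16, R 4.3.3) and described with Python 3.11.15, numpy 2.4.6, scipy 1.17.1 and pandas 2.3.3. Values were log2(CPM + 0.5), centred on the mean of the gender label. The SD had 10 degrees of freedom. The SD expected from counting assumed Poisson reads, and since PCR reads carry no molecular identifiers, it covers counting error only. No group test was made, so only the 15 pairs have p-values. Each gives how often reordered embryos reached a correlation at least as large in size. The reordering treats the embryos of a label as exchangeable, although littermates are not independent. Named genes were the 15 highest in CPM, the 15 of largest and smallest SD, the 10 of largest SD from 100 CPM, the 10 at each end of components 1 and 2, 3 per list, the pairs, and the genes at the threshold, of which a few are not reported here. Members, lists and pairs were chosen with earlier results of these data known. Alternatives were size factors of DESeq2 1.42.0, library totals, other filters, a pseudocount of 2 CPM, no centring, other measures of spread and leaving out each embryo. Leaving out embryos 3 and 10 together, or embryo 1 without renormalising, was chosen after seeing the data. Scripts were tested on simulated data. Promoter sequences are from RefSeq (GRCm38.p6).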

Additional observations from a re-analysis of the deposited data

Results flagged for a closer look

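In 17 of the 152 sets of 6 embryos examined (1 gender label, 1 measure), 1 embryo lay far from the other 5 by Dixon's test. Chance gives about 1 such set in 20 for normally distributed measures not chosen by their spread. The sets share the same embryos and some genes had few reads, so the 17 sets cannot be read as an excess. Component scores and genes named for a large SD were chosen by their spread, and for them the share has no such reference. Embryo 3 stood apart on principal component 1 (0.89, others -0.28 to -0.00) and embryo 1 on component 2 (0.80, others -0.35 to 0.07).

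Among the gene lists, the mean log2 difference from the label mean was -0.46 for pluripotency and lineage regulators in embryo 7, against 0.03 to 0.19 in the other females. Embryo 10 stood apart for mitosis genes (-0.36, others 0.01 to 0.19) and for glycolysis and pyruvate genes (0.42, others -0.17 to 0.05). DNA methylation genes were low in embryo 1 (-0.49, others -0.00 to 0.19).

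Single genes are given as log2(CPM + 0.5). Embryo 1 was low for Dnmt1 (2.62), Foxn2 (4.56) and Id3 (5.17). Embryo 10 was low for Klf17 (5.34), Socs3 (6.04) and Tfap2c, the trophectoderm regulator (7.50, others 8.30 to 8.46). Embryo 3 was high for the helicase subunit Mcm5 (8.73, others 7.93 to 8.17) and low for the maternal complex gene Tle6 (0.24, others 4.01 to 5.10). Embryo 7 was low for Mcm2 (8.26, others 8.5 to 8.60), embryo 8 for Uhrf1 (0.65, others 3.04 to 4.25) and embryo 11 for the zona pellucida gene Zp3 (5.11, others 5.94 to 6.40).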

How the results depend on the processing

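The 3 pairs past the threshold kept a positive r under every alternative run. The number of genes was 3588 with a mean of at least 50 CPM and 13779 with no filter, and the median SD was then 0.44 and 0.83. It was 0.26 after the variance stabilising transformation of DESeq2 and 0.55 without embryos 3 and 10. The first component held 15.7% with no filter. Leaving out 1 embryo at a time gave 6697 to 6818 genes, median SDs of 0.57 to 0.60 and 18.4% to 23.4% on the first component.

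Without embryos 3 and 10, a choice made after seeing the data like leaving out embryo 1 without renormalising, the median pair correlation was 0.59 for ribosomal protein genes and 0.17 for oxidative phosphorylation genes. Leaving out 1 embryo gave r between 0.77 and 0.89 for Krt8 and Krt18 (adjusted p 0.0139 to 0.0586, above 0.05 without embryo 5), between 0.57 and 0.90 for Hspd1 and Hspe1 (adjusted p 0.0151 to 0.220, above 0.05 without embryo 1, 2, 3, 4, 5, 6 or 12) and between 0.72 and 0.84 for Cdh1 and Ctnnb1 (adjusted p 0.0168 to 0.116, above 0.05 without embryo 1, 3, 5 or 7). Hspd1 and Hspe1 had r = 0.69 without embryos 3 and 10 and 0.81 without embryo 1 unrenormalised, and Cdh1 and Ctnnb1 0.72 in the latter case, none past an adjusted p of 0.05. Npm1 and Ncl reached r = -0.75 (adjusted p = 0.0332) with library totals in place of TMM factors, and the cause was not tested.

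The lists of named genes moved more. Of the 15 genes of largest SD, 1 remained at a mean of at least 50 CPM, 1 after the variance stabilising transformation, 5 with the CV, 6 with a median of at least 10 CPM and 9 with the MAD. Of the 15 of smallest SD, 0 remained with no filter, 2 after the transformation, 2 with the MAD and 8 with library totals. At least 14 of the 15 highest genes remained under each alternative run. The causes were not tested. No paired analysis was possible because the embryo numbers only name samples and no label or test pairs a male with a female embryo.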
